A study of Mus musculus with 15 samples.

Results

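The 10 genes described here are Cd36, Fabp4, Fabp5, Lpl, Angptl4, Slc27a1, Slc27a4, Acsl1, Acsl3 and Acsl4. They act in the steps that carry fatty acids from lipoproteins in the medium or plasma into the adipocyte and turn them into acyl-CoA. Angptl4 encodes an inhibitor of the first step. The 10 genes were taken by gene symbol from a count table of 18804 genes. All 10 had a row and enough reads to be tested. Mesenchymal precursors from the ears of C57BL/6J mice were differentiated to adipocytes in culture, and RNA of all dishes was collected 16 days after differentiation began. The 3 groups of 5 libraries differed in the time the cells had spent at 31°C: 0 days (37°C throughout), 1 day (moved on day 15) or 12 days (moved on day 4). All groups shared the differentiation cocktail of methylisobutylxanthine, dexamethasone and insulin together with troglitazone per the labels, where the study's methods also name rosiglitazone for ear precursors. Both drugs activate PPARγ. Whether libraries within a group trace back to different animals or dishes is not stated, so the p-values below measure the spread between libraries, which may be technical.

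Adipocytes take up fatty acids in steps. Lipoprotein lipase (Lpl), which the fat cell secretes, releases fatty acids from triacylglycerol-rich lipoproteins, and ANGPTL4 inhibits it. CD36 and the transport proteins FATP1 (Slc27a1) and FATP4 (Slc27a4) favour entry at the membrane, the small proteins FABP4 and FABP5 bind the fatty acid in the cytosol, and the long-chain acyl-CoA synthetases ACSL1, ACSL3 and ACSL4 attach coenzyme A, without which it can be neither stored nor oxidised. ACSL1 is the main form of mature adipocytes, ACSL3 is found on the endoplasmic reticulum and on growing lipid droplets, and ACSL4 prefers arachidonic acid and other polyunsaturated chains. Many of these genes, Cd36, Fabp4, Lpl, Angptl4 and Acsl1 among them, are textbook targets of PPARγ.

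Libraries held 92387376 to 133270973 counts in the 37°C group, 74430465 to 105322757 after 1 day at 31°C and 64648178 to 91338649 after 12 days, and each gene of the set had at least 956 reads in every library. Levels are given as CPM, a gene's count divided by the library total and set to a common size, after TMM scaling, which aligns the bulk of the genes between libraries. Between libraries of a group the coefficient of variation of the 10 genes lay between 2.2% and 8.33%, with a median of 5.02%. The 10 adipocyte marker genes were detected in every group, and their summed level, 3275 to 3527 CPM at day 0 and 3446 to 3658 CPM at day 1, was down to 2184 to 2373 CPM by day 12. Of these markers 2 were called higher and 5 lower at day 12: Adipoq went from 1095 to 464 CPM and Cfd from 1219 to 582 CPM, while Pnpla2 rose from 258 to 430.0 CPM and Retn from 0.272 to 0.935 CPM. Both comparisons with day 0 use the same 5 day 0 libraries, so their values are given side by side and are not independent of each other.

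After 12 days at 31°C the transcripts of the fatty acid binders Fabp4 and Fabp5, of the synthetase Acsl1 and of the membrane protein Cd36 were higher than at 37°C, by 1.55-fold to 2.04-fold. After 1 day Fabp4 alone had passed the same limits, an adjusted p under 0.05 in edgeR's quasi-likelihood test and a change of over 1.5-fold. Acsl4 took another course, with its highest level at day 1 under TMM scaling and overlapping ranges at days 0 and 12, though scaling by 4 reference genes put day 12 above day 1 (0.18 on the log2 scale). Under TMM scaling Lpl and Angptl4 differed from day 0 by at most 1.20-fold at either time. At day 12 their log2 changes were 0.38 and 0.37 when scaled by Hprt and Tbp. They were 0.96 and 0.95, past the fold limit, when scaled by 4 reference genes.

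Start sites of Cd36, Acsl1 and Acsl4 are shown as RefSeq promoter windows, because these 3 genes followed different courses under TMM scaling. Cd36 was near its final level after 1 day, Acsl1 was higher at each step and Acsl4 was highest at day 1. Each window is the 250 bases upstream of the start in GRCm38.p6, written 5′ to 3′ on the gene's strand, with AGGTCA (the half-site bound by PPAR and RXR) and CCAAT, or their reverse complements TGACCT and ATTGG, in capitals. Cd36 lies at chr5:17835897-17836146 on the minus strand, the 2 Acsl1 windows lie at chr8:46470787-46471036 and chr8:46490716-46490965 on the plus strand, and Acsl4 lies at chrX:142390536-142390785 on the minus strand.
Cd36: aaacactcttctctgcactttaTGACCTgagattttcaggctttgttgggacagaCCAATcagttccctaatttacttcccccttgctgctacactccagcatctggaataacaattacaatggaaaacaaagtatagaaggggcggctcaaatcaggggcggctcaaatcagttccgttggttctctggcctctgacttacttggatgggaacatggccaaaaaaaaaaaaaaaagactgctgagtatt
Acsl1 upstream start: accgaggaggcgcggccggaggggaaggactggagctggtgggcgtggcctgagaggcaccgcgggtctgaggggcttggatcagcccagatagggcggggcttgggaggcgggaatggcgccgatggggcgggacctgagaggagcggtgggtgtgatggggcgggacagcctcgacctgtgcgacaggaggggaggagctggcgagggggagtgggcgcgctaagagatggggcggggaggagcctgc
Acsl1 downstream start: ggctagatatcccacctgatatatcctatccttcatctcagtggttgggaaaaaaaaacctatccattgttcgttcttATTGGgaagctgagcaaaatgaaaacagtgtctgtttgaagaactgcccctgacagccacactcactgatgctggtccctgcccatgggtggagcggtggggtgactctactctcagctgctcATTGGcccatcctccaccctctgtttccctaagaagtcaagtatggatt
Acsl4: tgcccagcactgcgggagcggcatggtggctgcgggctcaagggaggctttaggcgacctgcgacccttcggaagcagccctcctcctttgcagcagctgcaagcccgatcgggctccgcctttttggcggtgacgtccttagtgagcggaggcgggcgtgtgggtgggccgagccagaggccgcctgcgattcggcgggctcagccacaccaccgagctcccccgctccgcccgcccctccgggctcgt

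Windows were at hand for 6 of the 10 genes, 9 windows in all, with none for Fabp4, Fabp5, Lpl and Angptl4. The half-site occurred once among them, 228 bases before the start of Cd36, and 14% of 32851 mouse promoter windows of that length hold it on either strand. CCAAT occurred 195 bases before the same start and 172 and 49 bases before the downstream start of Acsl1, and it was also found in 2 of the 3 Slc27a1 windows and in that of Acsl3, against 33.8% of all windows with at least 1. The upstream start of Acsl1 was 72% G or C and held 4 copies of the GC box GGGCGG, the Acsl4 window was 70.8% G or C with 2 copies, and the Cd36 window was 43.2% G or C, also with 2 copies, while 32.7% of all windows have this box. Neither ACGTG, the core of the hypoxia response element, nor TATAAA was present in these 4 windows, against 16.6% and 12.4% of all windows. Motifs were searched on both strands, and these matches describe letters in a window and not bound sites.

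The first step was examined through the lipase and its inhibitor. Lpl (chr8:68880491-68907448, plus strand, GRCm38) had the highest count of the set. Its level at day 0 was 1910.4, 1931, 1819, 2123 and 1980.1 CPM, with a mean of 1953 ± 112 (SD, n = 5). At day 1 it was 2147, 2240.1, 2542, 2437 and 2355 CPM, so that each of these libraries was above every day 0 library. At day 12 it was 2225, 2271, 2028, 1936 and 2107 CPM, which overlapped with both other groups. Against 37°C, 1 day gave a log2 fold change of 0.26 ± 0.05 (SE, adjusted p = 1.95e-05) and 12 days one of 0.11 ± 0.05 (adjusted p = 0.0288), by edgeR's quasi-likelihood test with Benjamini-Hochberg adjustment. Both are under the fold limit.

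Angptl4 (chr17:33773750-33781830, minus strand), which encodes the inhibitor, averaged 702 ± 15.8 CPM in cells kept at 37°C, 665 ± 55.4 after 1 day and 758 ± 16.7 after 12 days. The day 1 libraries fell into a lower set of 623, 634 and 617 CPM and a higher pair of 719 and 731 CPM, which gave the widest spread of any gene here. The log2 change at day 1 was -0.08, with a 95% interval of -0.16 to -0.0028 and an adjusted p of 0.0728 by edgeR, which misses the limit. At day 12 all 5 libraries, from 736 to 776 CPM, were above the day 0 range of 683 to 719 CPM, and the log2 change was 0.11 with an adjusted p of 0.0150 by edgeR. Within a library the ratio of Angptl4 to Lpl counts averaged 0.361 at day 0, then 0.285, then 0.360, and the day 1 ratios of 0.249 to 0.321 were all below the day 0 ratios of 0.327 to 0.395.

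Among the membrane proteins Cd36 moved most against day 0. Cd36 (chr5:17781690-17888801, minus strand) encodes a scavenger receptor that takes up long-chain fatty acids and oxidised lipoproteins. The day 0 libraries held 401, 409.5, 364, 435 and 440.3 CPM, the day 1 libraries 518, 567, 620.4, 587 and 592 CPM and the day 12 libraries 639, 633, 633, 606 and 668 CPM. Every library kept at 31°C was above every library kept at 37°C, and the day 1 and day 12 ranges overlapped. The level was 1.41-fold higher at day 1 (log2 change 0.49 ± 0.05) and 1.55-fold higher at day 12 (0.63 ± 0.05), with adjusted p-values of 8.00e-10 and 5.57e-12 by edgeR. The day 12 value lay close to the 1.5-fold limit, its 95% interval of 0.54 to 0.72 on the log2 scale containing it. From day 1 to day 12 the log2 change was 0.14 ± 0.05 (adjusted p = 0.00851, edgeR).

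The transport proteins FATP1 and FATP4, which also carry acyl-CoA synthetase activity, had low and similar transcript levels. Slc27a1 (chr8:71568882-71587302, plus strand) averaged 23.3 ± 1.09, 23.1 ± 1.14 and 26.8 ± 1.59 CPM after 0, 1 and 12 days. Its log2 change was -0.01 at day 1, with a 95% interval of -0.10 to 0.08, and 0.20 at day 12, with adjusted p-values of 0.815 and 0.000356 by edgeR, and the day 12 range of 24.4 to 28.7 CPM touched the day 0 range of 22.2 to 24.5 CPM. Slc27a4 (chr2:29802634-29817522, plus strand) was at 31.0 ± 0.939, 34.1 ± 1.67 and 41.9 ± 1.48 CPM at days 0, 1 and 12. Its 3 ranges, 29.8 to 31.95, 32.3 to 36.2 and 39.6 to 43.7 CPM, did not overlap. By edgeR the log2 changes from day 0 were 0.14 ± 0.04 (adjusted p = 0.00169) and 0.44 ± 0.04 (adjusted p = 1.11e-10). With TMM both changes are under the fold limit. The day 12 change was past it with total counts (0.63), with Hprt and Tbp (0.70) and with 4 reference genes (1.28). The ratio of Slc27a4 to Slc27a1 counts within a library averaged 1.33 ± 0.03, 1.48 ± 0.12 and 1.57 ± 0.11 in the same order.

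**Figure D1:**
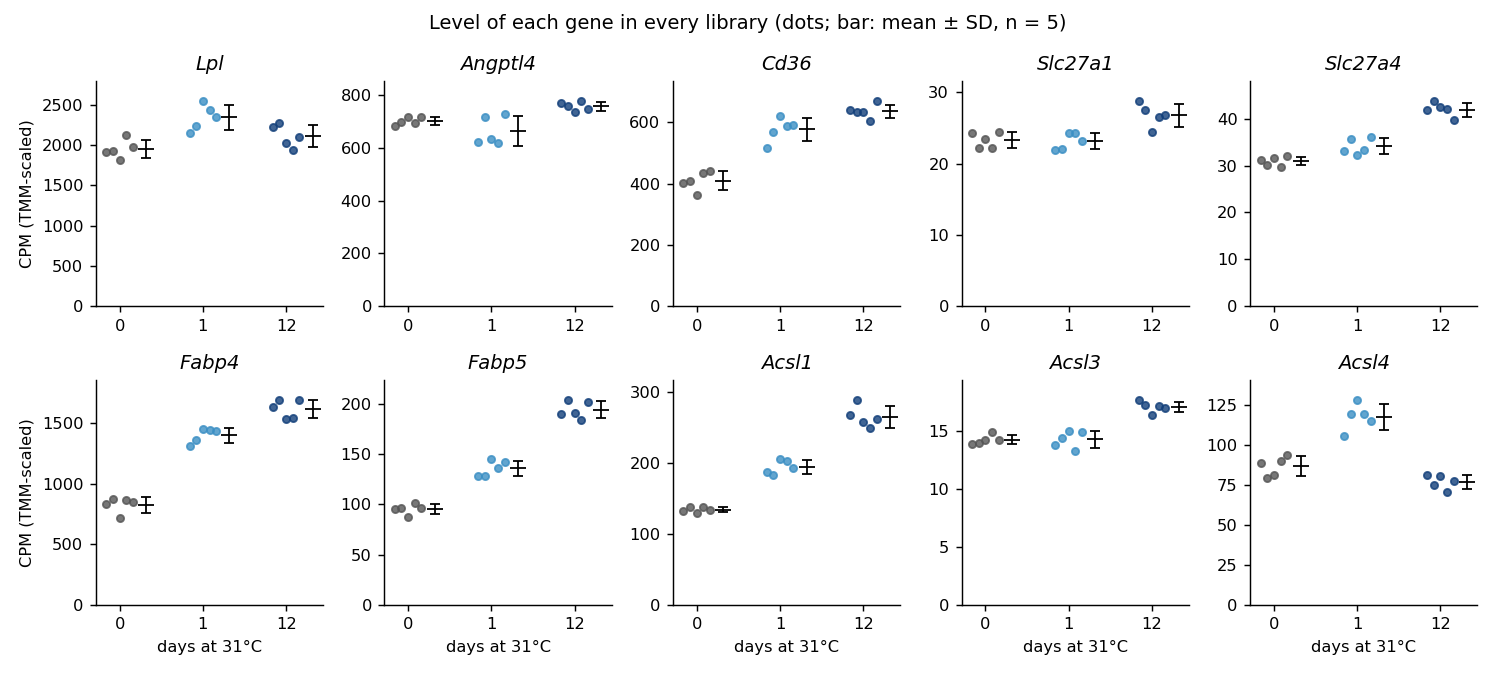
Level of the 10 genes in each of the 15 libraries, in TMM-scaled CPM on a linear axis from 0, against days at 31°C. Dots are libraries and bars are means ± SD of 5 libraries, and a reader should see the rise of Cd36, Fabp4, Fabp5 and Acsl1 with no overlap between 37°C and 31°C, and Acsl4 highest at day 1 on this TMM scale, with a mean of 117 CPM.

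The genes of the cytosolic binding proteins were 1.95-fold and 2.04-fold higher at day 12 than at day 0. Fabp4 (chr3:10204088-10208576, minus strand), which encodes the adipocyte fatty acid-binding protein, was at 835, 873, 713, 866 and 852 CPM at day 0. After 1 day it was at 1309, 1359, 1454, 1439 and 1433 CPM, and after 12 days at 1629.7, 1690.0, 1535, 1544 and 1689 CPM. The 3 ranges did not overlap, and replicate 3 of day 0 stood below the other 4 libraries of its group. Fabp4 was 1.69-fold higher at day 1 (log2 change 0.76 ± 0.04) and 1.95-fold higher at day 12 (0.97 ± 0.05), with adjusted p-values of 2.55e-13 and 1.37e-15 by edgeR. With TMM, most of the day 12 difference was therefore present after 1 day. The step from day 1 to day 12 was 0.21 ± 0.04 on the log2 scale, with an adjusted p of 0.000235 by edgeR. This step was 0.38 with total counts, 0.55 with Hprt and Tbp and 1.00 with 4 reference genes.

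Fabp5 (chr3:10012548-10016607, plus strand), whose protein was first known from skin and is also made by adipocytes, rose over 12 days. Its libraries held 94.9, 96.0, 87.0, 101 and 96.5 CPM without cooling, 128, 128, 145, 136 and 142 CPM after 1 day and 190.0, 204, 191, 184 and 202 CPM after 12 days, without overlap between groups. The log2 change was 0.51 ± 0.04 from day 0 to day 1 and 0.52 ± 0.04 from day 1 to day 12, which gave 2.04-fold over 12 days (adjusted p = 4.90e-17, edgeR). The later step was 0.69 with total counts, 0.85 with Hprt and Tbp and 1.31 with 4 reference genes. Its level is uncertain, because 5 processed pseudogenes with 93.6% to 98.3% identity over at least 336 bases lie elsewhere in the genome and the handling of reads that fit several places could move its count. None of the 5 had a row in the table.

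The ratio of Fabp5 to Fabp4 counts within a library was 0.115 ± 0.005 at day 0, lower at 0.0970 ± 0.0025 at day 1, and 0.120 ± 0.003 at day 12. All day 1 ratios, from 0.0940 to 0.0995, were below the lowest ratio of either other group, 0.110 at day 0 and 0.117 at day 12. Per kilobase of transcript, Fabp5 made up 9.47%, 8.09% and 9.83% of the transcripts of both genes after 0, 1 and 12 days, so Fabp4 was the main form throughout.

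Activation was read from the synthetases. Acsl1 (chr8:46471037-46536051, plus strand) had a transcript level of 132, 138, 129, 137 and 134 CPM in the 37°C libraries. It was 188, 184, 205, 203 and 192 CPM after 1 day, and 268, 289, 257, 249 and 262 CPM after 12 days at 31°C. The 3 groups did not overlap. Acsl1 was 1.45-fold higher at day 1 (log2 change 0.54 ± 0.04, adjusted p of 3.46e-12 by edgeR), just under the fold limit, and 1.98-fold higher at day 12 (0.98 ± 0.04, adjusted p of 1.85e-17 by edgeR). The step from day 1 to day 12 was 0.45 ± 0.04, and 0.79 with Hprt and Tbp or 1.24 with 4 reference genes. Of the exon bases of Acsl1, 9.91% also lie in an unnamed gene model on the other strand, and whether reads were counted by strand is not given in the sources used here.

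Acsl4 (chrX:142317993-142390535, minus strand) was highest at day 1 with TMM. The level was 88.6, 79.5, 80.9, 90.2 and 93.8 CPM in libraries from 37°C, 105, 119, 128, 119 and 115 CPM after 1 day at 31°C, and 81.4, 74.8, 80.3, 70.2 and 77.7 CPM after 12 days. Each day 1 library was above every library of the other groups, and the day 0 and day 12 ranges overlapped. The log2 change was 0.44 ± 0.05 at day 1 (adjusted p of 2.34e-08 by edgeR), -0.17 ± 0.05 at day 12 against day 0 (adjusted p of 0.00325) and -0.61 ± 0.05 at day 12 against day 1 (adjusted p of 1.07e-10). This last difference, 1.53-fold, was past both limits by a narrow margin, and it was -0.58 and not past the fold limit when replicate 3 of day 1 or replicate 4 of day 12 was left out.

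Acsl3 (chr1:78657825-78707743, plus strand), the least abundant gene of the set, averaged 14.3 ± 0.406, 14.3 ± 0.729 and 17.1 ± 0.460 CPM after 0, 1 and 12 days. Its day 1 change had a 95% interval of -0.08 to 0.09 on the log2 scale. All day 12 libraries, from 16.4 to 17.7 CPM, were above all others, and the log2 change against day 0 was 0.26 ± 0.04, with an adjusted p of 6.84e-06 by edgeR and under the fold limit. It shares 5.60% of its exon bases with Utp14b on the same strand.

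At day 12 Acsl1 was higher, and with TMM Acsl4 was at or below its day 0 level. With total counts, Hprt and Tbp or 4 reference genes Acsl4 was above it, by 0.02, 0.09 and 0.67 on the log2 scale. The balance between Acsl1 and Acsl4 changed at day 12. The ratio of Acsl1 to Acsl4 counts was 1.49, 1.73, 1.59, 1.52 and 1.42 in the 37°C libraries, 1.78, 1.54, 1.60, 1.69 and 1.68 after 1 day, and 3.29, 3.86, 3.20, 3.54 and 3.37 after 12 days. The first groups overlapped, and all day 12 ratios were above both. Per kilobase of transcript, Acsl1 made up 49.9% ± 1.27 of the 5 ACSL genes (Acsl1, Acsl3, Acsl4, Acsl5 and Acsl6) at 37°C, 56.7% ± 0.952 after 1 day and 67.4% ± 1.17 after 12 days, and Acsl4 made up 23.8% ± 1.20, 25.3% ± 1.05 and 14.5% ± 0.838. These ratios are taken within a library and do not depend on how libraries are scaled.

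**Figure D2:**
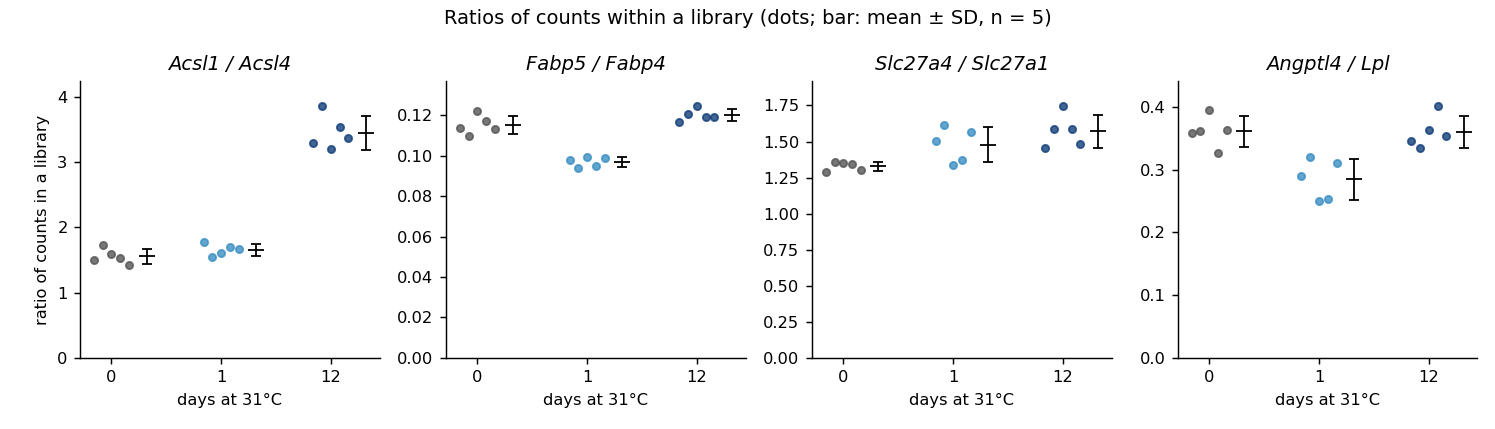
Ratios of counts within each library for 4 pairs of genes with related functions, on linear axes from 0, against days at 31°C. Dots are the 15 libraries and bars are means ± SD of 5, and the Acsl1 to Acsl4 ratio is 3.45 ± 0.26 at day 12 against 1.55 ± 0.12 at day 0, while Fabp5 to Fabp4 and Angptl4 to Lpl are lowest at day 1.

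Set against all 14293 genes tested, 1 of the 10 (Fabp4) was past both limits and higher at day 1 and 0 were lower, where 7.71% of all genes were higher and 13.4% lower. By adjusted p alone 7 were higher and 0 lower (35.3% and 36.2% of all genes), and 7 lay above the day 0 range without overlap and 0 below it (28.6% and 28.8%). After 12 days 4 were past both limits and higher and 0 were lower (13% and 16.2% of all genes). By adjusted p alone 9 were higher and 1 lower (39.2% and 37.4%), and 7 lay above the day 0 range and 0 below it (33% and 31.7%). Comparing the 12-day group with the 1-day group, 0 were higher and 1, Acsl4, was lower (10.6% and 8.53% of all genes). By adjusted p alone 8 were higher and 2 lower (34.3% and 32.8%), and 7 lay above and 1 below the day 1 range (26.5% and 25.9%). The median log2 change of the 10 genes was 0.35, 0.35 and 0.21 in the 3 comparisons, against -0.01, 0.01 and 0.01 over all genes.

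**Figure D3:**
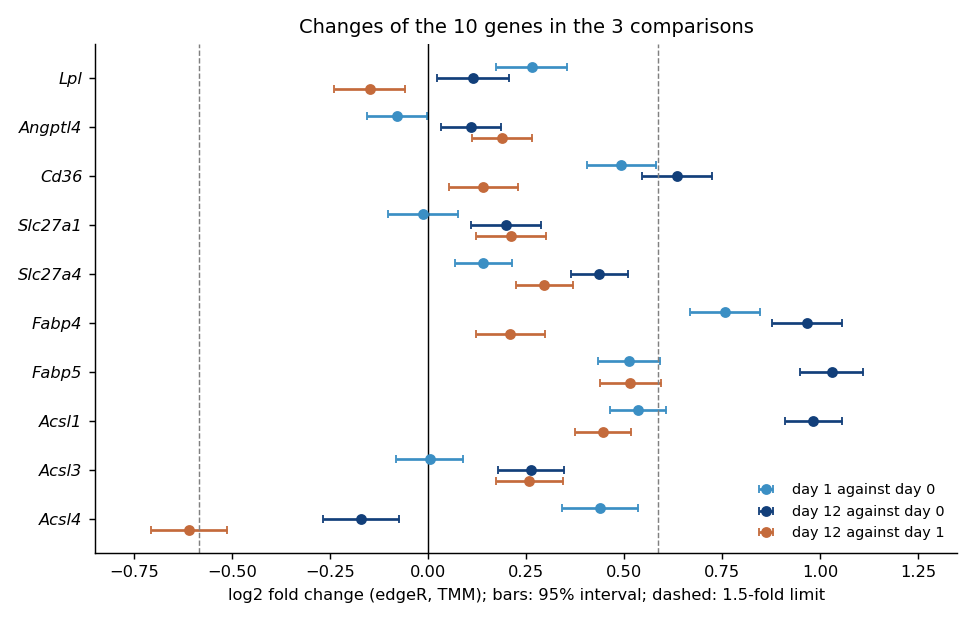
log2 fold change of each gene in the 3 comparisons by edgeR, with 95% intervals as bars and the 1.5-fold limit as dashed lines. Fabp4, Fabp5, Acsl1 and Cd36 lie right of the limit at day 12 against day 0, Fabp4 also at day 1, and Acsl4 lies left of it, at -0.61, for day 12 against day 1.

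How libraries are scaled bears on these values, since the day 12 libraries needed TMM factors of 1.08 to 1.09 and the others 0.946 to 0.969. Scaled by total counts, all genes moved by a median of 0.21 on the log2 scale at day 12 against day 0. Scaled by Hprt and Tbp the median was 0.27, and scaled by the 4 PCR reference genes with a row in the table it was 0.85, but 2 of those 4, Gapdh and B2m, were themselves called lower at day 12. The split of all genes called higher and lower at day 12 went from 1852 and 2320 with TMM to 2982 and 1668 with total counts, 3562 and 1509 with Hprt and Tbp and 9713 and 643 with the 4 genes. Against day 1 it went from 1510 and 1219 to 2248 and 843, 3529 and 622, and 10196 and 255. At day 1 it was 1102 and 1918 with TMM and 850 and 2276 with Hprt and Tbp.

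A new scaling shifts every gene by about the same amount, so changes relative to the median of all genes are alike under each scaling by construction, and this is no sign of stability. At day 12 these relative changes were 1.02 for Fabp5, 0.97 for Acsl1, 0.95 to 0.96 for Fabp4, 0.62 for Cd36, 0.42 to 0.43 for Slc27a4 and -0.18 for Acsl4. As fitted, the direction of Acsl4 at day 12 against day 0 and that of Lpl at day 12 against day 1 turned under the total count, Hprt and Tbp, and 4-gene scalings. The direction of Acsl4 at day 12 against day 1 turned under the 4-gene scaling alone (0.18). As a share of all counts in the library the 10 genes together were 0.407% ± 0.020, 0.531% ± 0.028 and 0.625% ± 0.027 after 0, 1 and 12 days, without overlap between groups.

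**Figure D4:**
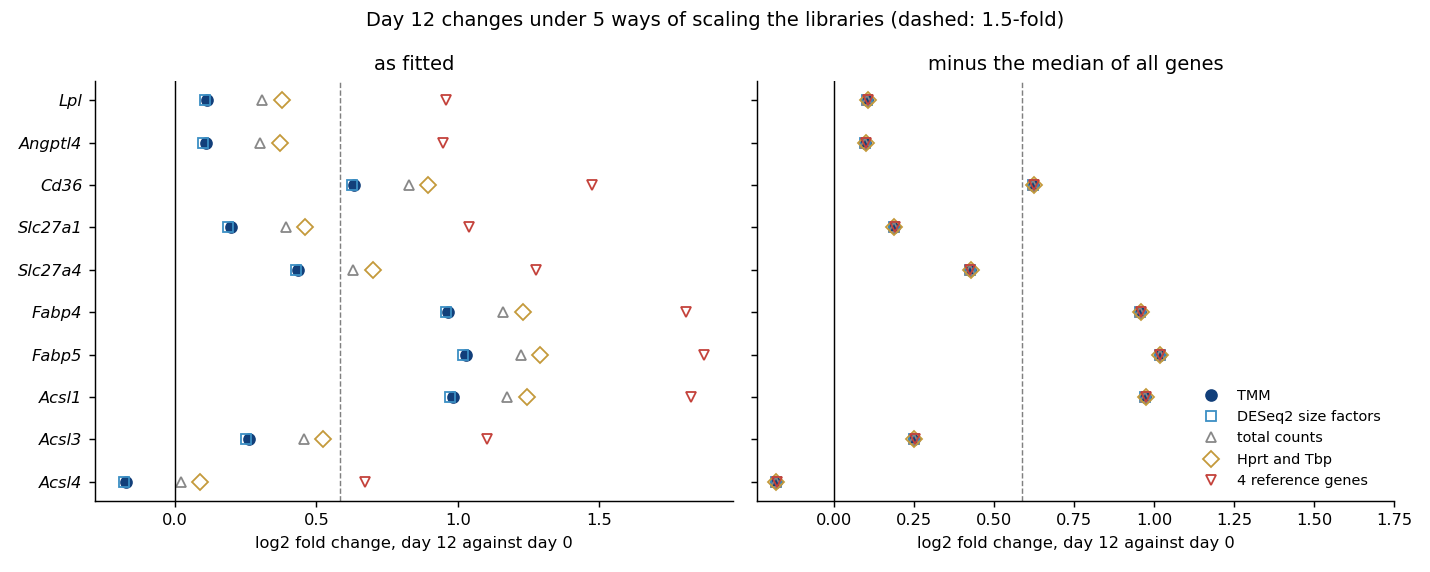
log2 fold change of each gene at day 12 against day 0 under 5 ways of scaling the libraries, as fitted (left) and after subtracting the median of all genes under the same scaling (right), with the 1.5-fold limit dashed. On the left the symbols of a gene spread, from -0.17 to 0.67 for Acsl4, and on the right they coincide by construction, since a scaling shifts the median and each gene alike.

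Per kilobase of the principal transcript the order of levels at day 0 was Fabp4 (924 CPM per kb), Lpl (475), Angptl4 (212), Cd36 (121), Fabp5 (96.4), Acsl1 (34.4), Acsl4 (16.4), Slc27a1 (8.35), Slc27a4 (7.64) and Acsl3 (3.62), and no neighbours overlapped. At day 1 Slc27a4 (8.42) and Slc27a1 (8.28) had changed places and overlapped. At day 12 Fabp5 (197) stood before Cd36 (187), with overlapping ranges, and Slc27a4 (10.3) and Slc27a1 (9.58) again overlapped. Fabp4 at day 12 was at 1805 CPM per kb and Acsl3 at 4.33.

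The closest neighbours of the 5 genes called in at least 1 comparison were sought by Pearson correlation of log2 CPM over the 15 libraries, leaving out those that averaged under 10 CPM. The libraries fall into 3 groups, so these values mostly describe the course over the group means. Cd36 was closest to Ola1 (r = 0.988) and Srsf3 (0.987), and Fabp4 to Mtch2 (0.993), a protein of the outer mitochondrial membrane, and Hsd17b12 (0.993), an enzyme of fatty acid elongation. Fabp5 was closest to Slc25a5 (0.994), an ADP/ATP carrier, and to Acsl1 (0.993), and Acsl1 to Dhx9 (0.993) and Nme1 (0.993). Acsl4 was closest to 5730437N04Rik (0.972) and 2900097C17Rik (0.970).

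Other genes of the pathway were taken from lists of the same functions, and their counts are to be read against all genes tested, of which 7.71% were higher and 13.4% lower at day 1, and 13% and 16.2% at day 12. Of 14 tested partners of LPL and receptors of lipoprotein uptake, 0 were higher and 3 lower at day 1, and 1 was higher and 6 were lower at day 12, with a median log2 change of -0.24 and -0.52. Apoe, a ligand of lipoprotein receptors, fell at day 12 from 662 ± 49.5 to 226 ± 8.66 CPM (log2 change -1.55, adjusted p of 2.69e-20 by edgeR). Vldlr, a receptor for triacylglycerol-rich particles, fell from 109 ± 9.96 to 40.2 ± 1.42 CPM (-1.44), Pcsk5, a proprotein convertase, by 1.23 on the log2 scale, and the sorting receptor Sorl1 by 1.07. The LPL anchor gene Gpihbp1 was not analysed here.

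Of 6 tested other carriers, from 12 with a row, 0 were called at day 1 and 2 were higher and 2 lower at day 12. Slc27a3, encoding another member of the FATP family, fell from 33.7 ± 2.46 to 16.2 ± 0.759 CPM (-1.06), and the fatty acid receptor Ffar4 fell from 4.23 ± 0.473 to 2.08 ± 0.143 CPM (-1.03). The 2 that were higher, Fabp7 and Mfsd2a, were below 0.31 CPM on average in every group and were named after their values were seen. Of 9 caveola proteins and CD36 palmitoyltransferases, only Zdhhc4 was called, and it was higher at both times. ZDHHC4 attaches palmitate to CD36, and its transcript averaged 22.1 ± 1.45, 48.1 ± 2.93 and 36.8 ± 2.33 CPM after 0, 1 and 12 days, with log2 changes from day 0 of 1.125 and 0.74 and adjusted p-values of 8.82e-16 and 1.44e-12 by edgeR.

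Of 11 tested other acyl-CoA synthetases, 2 were higher and 4 lower at day 1, and 3 were higher and 5 lower at day 12. Acsl6 rose by 0.92 and 1.90 on the log2 scale, from a low level of 0.609 ± 0.207 CPM to 2.28 ± 0.392 CPM at day 12. Acsm3, a medium-chain enzyme, was lower, at -1.71 and -2.38, but 39.7% of its exon bases lie opposite another gene. Acss3, a short-chain enzyme, was lower, at -1.29 and -1.01, with 33.9% so shared, and Acsf2 was at -0.16 and fell by 0.70 at day 12. Of 12 tested acyl-CoA binding proteins and thioesterases, 0 were called at day 1 and 1, Acot8 of peroxisomes, was lower at day 12 (-0.62, with 12.3% of its exon bases opposite another gene).

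Of 13 tested transcriptional regulators of these genes, 0 were higher and 2 lower at day 1, and 0 were higher and 4 lower at day 12, with medians of -0.14 and -0.43. The 4 lower genes at day 12 included Epas1 (HIF-2α, -0.77), Nr1h3 (LXRα, -0.69) and Rxrg (-0.67). The other was Pparg, the main regulator of adipocyte genes, which fell from 119 ± 2.23 to 78.6 ± 3.32 CPM (-0.59, adjusted p of 5.27e-14 by edgeR), close to the fold limit and named after its value was seen. Under total count, Hprt and Tbp, and 4-gene scaling 0 regulators were lower at day 12, and with the shift of the 4-gene scaling Pparg, Epas1, Nr1h3, Rxrg and Ppara turned positive, as did Acsf2 and Acot8 above. Ppara, at 1.76 ± 0.212 CPM, was lower at day 1 (-1.64) and at -0.43 at day 12, with adjusted p-values of 6.18e-08 and 0.0319 by edgeR.

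Other targets of PPARs went in both directions. Of 14 tested, 1 was higher and 3 were lower at day 1, and 2 were higher and 6 lower at day 12, with medians of -0.01 and -0.33. Cpt1a, which admits fatty acyl groups to mitochondria and was named after its values were seen, rose by 0.71 and 0.91. The lipid droplet gene Cidec fell by 2.62 and 1.59, from 177 ± 6.41 to 28.8 ± 2.30 and 59.0 ± 3.69 CPM, and Adipoq, encoding adiponectin, was not called at day 1 (0.04, adjusted p of 0.207 by edgeR) and fell by 1.24 at day 12. With the 4-gene scaling the genes called lower at day 12 were 2 of 14 LPL partners, 0 of 6 carriers, 2 of 11 synthetases and 2 of 14 other targets. Under that scaling 643 of all 14293 genes were called lower and 9713 higher. The ratio of Fabp4 to Adipoq counts in a library went from 0.755 ± 0.042 to 1.24 ± 0.06 and 3.48 ± 0.11.

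**Figure D5:**
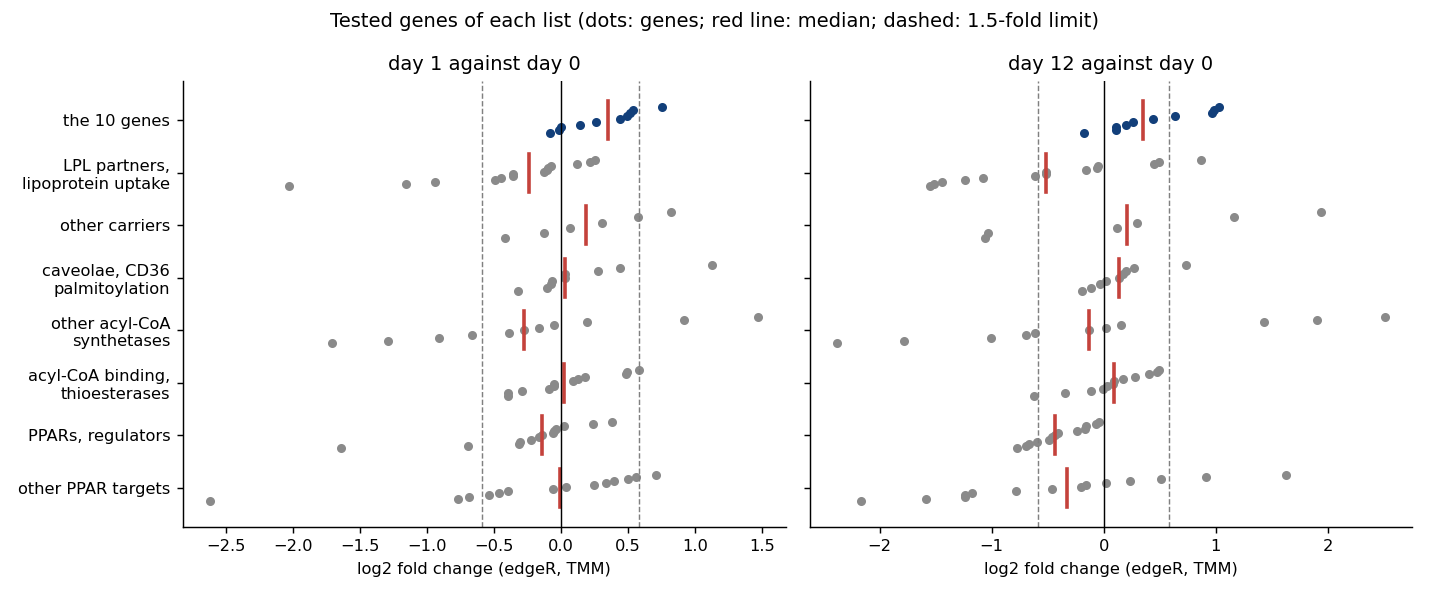
log2 fold change of every tested gene in each list at day 1 (left) and day 12 (right) against day 0 by edgeR, with 1 dot per gene, the list median as a red line and the 1.5-fold limit dashed. The 10 genes have a median of 0.35 at both times, and the lists of LPL partners and of PPAR regulators have medians of -0.52 and -0.43 at day 12.

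Markers of other cells moved with the groups. The 5 cartilage markers summed to 3671 to 4403 CPM at 37°C, 3905 to 4062 after 1 day and 1128 to 1222 after 12 days, with Comp at 3717, 3708 and 919 CPM. The sum was mostly Comp, with Col2a1 at 149, 155 and 182 CPM. Matn3, at 0.129 CPM or less, was called higher at day 12. The 7 markers of stromal progenitors summed to 1340 to 1397, 1399 to 1476 and 1132 to 1165 CPM, with Ly6a at 591 and 221 CPM and Pdgfra at 562 and 712 CPM at days 0 and 12. The 7 epithelial markers, nearly all from Trp63, summed to 47.9 to 55.1, 20.7 to 23.1 and 58.1 to 66.3 CPM. The 10 macrophage markers, mostly Cd14, summed to 26.6 to 33.9, 42.4 to 48.6 and 30.1 to 34.5 CPM, with 4 below the filter, and the 8 endothelial markers with a row to 7.34 to 9.38, 3.70 to 5.14 and 5.32 to 7.88 CPM. Krt5 and Krt1 were at 0 in all libraries of days 1 and 12, and Krt14 and the macrophage marker Fcgr1 in all libraries of day 12. The part of these cells in the changes above was not tested, and in RNA of whole dishes fewer cells of a type and less RNA per cell cannot be told apart.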

How the data were processed

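The deposited table holds raw read counts per gene for 15 libraries, made by the authors, who per the labels aligned reads to mm10 with TopHat2 2.0.13 and Bowtie2 2.2.1 and counted them with HTSeq. Strand and multi-mapping settings are not given in the sources used here. Counts for 14293 of 18804 genes passed edgeR's filter (count minimum of 10) and were fitted with edgeR 4.0.16 (R 4.3.3) under TMM scaling and a quasi-likelihood model of all 15 libraries in 3 groups. A gene was called when its p, adjusted by Benjamini and Hochberg's method, was under 0.05 and it differed by more than 1.5-fold. An SE is the log2 change divided by the root of F, and a 95% interval is 1.96 SE. The fit was tested on simulated data. No pair of libraries of a group agreed within sampling noise (mean chi-square per gene of at least 5.69).

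The 10 genes and all lists were chosen with earlier results of these data known. Named were the 10 genes, up to 4 called genes per list that averaged 1 CPM or more, and 2 neighbours per called gene. Some genes of the lists are not reported by name here. Gene spans and transcript lengths come from GENCODE M21 on GRCm38, the build of mm10, and promoters from RefSeq GRCm38.p6. Libraries fell into 2 series by their library number, with 4, 3 and 4 of the 5 libraries of days 0, 1 and 12 in the larger series, and what the numbers stand for is not stated. The correlation of deviations over 15 same-number pairs of libraries lay between -0.03 and 0.04. This cannot decide whether same-number libraries share an animal or dish, which is not stated. Alternatives were other scalings, DESeq2 1.42.0, other filters, the larger series alone, the series as a covariate, a replicate block and each library left out.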

Additional observations from a re-analysis of the deposited data

Results flagged for a closer look

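In 1 of the 30 groups of 5 values (10 genes in 3 groups) a library stood apart from the others by Dixon's criterion. Fabp4 in replicate 3 of day 0 was at 713 CPM against 835 to 873 CPM in the other 4, and the gap was 0.761 of the range, above the critical value of 0.71. Chance flags about 1 in 20 groups. Leaving this library out gave Fabp4 changes that stayed past both limits, as part of a range over all left-out libraries of 0.71 to 0.78 at day 1 and 0.92 to 0.99 at day 12 on the log2 scale.

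With TMM, the effects of 1 day and of 12 days at 31°C on Acsl4 differed by -0.61 on the log2 scale. This is the direct comparison of these groups by edgeR (adjusted p of 1.07e-10). On the TMM scale all 5 libraries of day 12 lay below all 5 of day 1. The call was lost with total counts (-0.44), with Hprt and Tbp (-0.27) and at 10 CPM or more (-0.58). It was also lost without replicate 3 of day 1 or replicate 4 of day 12. With 4 reference genes the direction turned (0.18).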

How the results depend on the processing

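Of 750 refits of the 10 genes' changes, 705 kept direction and call, 21 gained a call, 5 lost one and 19 turned direction. Without the scalings by total counts, by 4 reference genes and by Hprt and Tbp (the last added after seeing the data), 648 of 660 kept both. Of the 10, genes called higher at day 12 against day 1 went from 0 to 2 with total counts, 9 with 4 reference genes and 4 with Hprt and Tbp. Of all 14293 genes, those called higher went from 1510 to 2248, 10196 and 3529 in the same order. Those called lower went from 1219 to 843, 255 and 622. Of the 10, genes called lower went from 1 to 0 under each of these scalings and when only genes averaging 10 CPM or more were tested. With the 4 reference genes 10 were higher at day 12 against day 0, as were 9713 of all 14293 genes. By adjusted p alone 7 were higher after 1 day. After 12 days 9 were higher and 1 was lower, and between the cooled groups 8 were higher and 2 lower. Leaving out each library gave 1 to 1 higher at day 1, 4 to 4 higher at day 12, and 0 to 1 lower between days 1 and 12. Acsl4 at day 12 against day 1 was -0.44 with total counts, -0.27 with Hprt and Tbp, -0.58 at 10 CPM or more and 0.18 with 4 reference genes.

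Turned directions were Acsl4 at day 12 against day 0 (0.0225 with total counts, 0.67 with 4 reference genes, 0.0898 with Hprt and Tbp). Lpl at day 12 against day 1 turned under the same scalings (0.0229, 0.64 and 0.19). Acsl4 at day 12 against day 1 turned with 4 reference genes alone (0.18). The others were 2 changes near 0 at day 1. Slc27a1 was at 0.0084 with total counts and 0.0366 with 4 reference genes, and from -0.0301 to 0.00578 with 1 library left out, above 0 without day 0 replicate 1 or 5 or day 1 replicate 1 or 2. Acsl3 was at -0.0710 with Hprt and Tbp and -0.0418 at 10 CPM or more, and from -0.0126 to 0.0282 with 1 library left out, below 0 without day 0 replicate 1 or 2 or day 1 replicate 3 or 5. Over the scalings each turn follows the shift of the median of all genes, and the cause was otherwise not tested. Among the 8930 genes that averaged 10 CPM or more, 419 were called higher and 745 lower after 1 day, 637 and 1051 after 12 days, and 413 and 485 between them. By adjusted p alone, over all 14293 genes, the counts were 5049 and 5177, 5608 and 5342, and 4908 and 4690.

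The replicate block left 1 higher at day 1, 4 higher at day 12 and 1 lower between them. It changed no call of the 10 genes, and since what same-number libraries share is not stated it says nothing further. In the larger series of library numbers alone, and with the series as a covariate, those counts were also 1, 4 and 1. Counting error is small at these depths, and the spread between libraries sets the precision.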
